A study of Mus musculus with 3 samples.

Results

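Conventional type 1 dendritic cells (cDC1) of the stomach muscle layer are described here as 58 cell barcodes, out of 2675 that passed a filter on depth and mitochondrial RNA and 5735 in all. A barcode stands for 1 droplet, normally 1 cell, and a unique molecular identifier (UMI) for 1 captured RNA molecule. The filter asked for at least 2000 UMIs and at most 15% of UMIs from mitochondrial (mt-) genes. A passing barcode was taken as a cDC1 when Xcr1 and Clec9a together gave at least 2 UMIs, the complement genes of macrophages C1qa, C1qb and C1qc together at most 5, and Ccr7 and Fscn1, genes of mature migrating dendritic cells, together at most 2. Replicates 1, 2 and 3 held 11, 22 and 25 such barcodes.

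The study looked at macrophage populations of the stomach muscle in diabetes. The 3 libraries analysed here belong to its NonDiabetic group and hold CD45+ sorted cells from female C57bl/6 mice, freed from the muscle with collagenase type II. Each library was made with a droplet kit (Chromium 3' v3) that reads the 3' ends of transcripts, and samples of diabetic mice were not analysed here. The labels give no age, and they do not say whether each library came from its own animals. A p-value here thus reflects how the class difference varied between libraries, with counting error, and part of this may be technical. It cannot be read as spread between animals. Ptprc, which encodes CD45, stood at 782, 381 and 407 counts per 1000000 UMIs (CPM) of the summed cDC1 in replicates 1, 2 and 3, against 759, 517 and 470 CPM in all other passing barcodes. CPM is used below for every level, and a level is never compared between genes.

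cDC1 arise from bone marrow precursors that need the transcription factors IRF8, BATF3 and ID2 and the growth factor receptor FLT3. They take up dying cells, in part through the receptor CLEC9A, and load peptides of that cargo on MHC class I molecules for CD8 T cells, which is called cross-presentation. Their chemokine receptor XCR1 reads XCL1, a signal from NK and CD8 T cells, and in gut and other non-lymphoid tissues most of them carry the integrin CD103, whose alpha chain is Itgae. The other conventional dendritic cells, cDC2, depend more on IRF4, carry SIRPA and CD11b (Itgam) and present mainly on MHC class II. The nearest comparison class here was therefore taken as 180 barcodes with at least 2 UMIs of Cd209a, a C-type lectin found on such cells, with no Xcr1 or Clec9a UMI and the same limits on the C1q, Ccr7 and Fscn1 genes. They are called Cd209a dendritic cells, and replicates 1, 2 and 3 held 45, 60 and 75 of them.

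Members were selected on their UMIs of Xcr1, Clec9a and the other genes of the rule, so the values of these genes are a description only. Xcr1 (GRCm38, chr9:123852315-123862029, minus strand) was found in 51 of the 58 members with 285 UMIs in all and at most 28 in 1 barcode. Clec9a (chr6:129408862-129424763, plus strand) was found in 50 members with 155 UMIs in all and at most 21 in 1 barcode. Both genes were found in 43 members, Xcr1 alone in 8 and Clec9a alone in 7. The sum of both genes had a median of 5.50 and a range of 2 to 49 UMIs. No C1q UMI was found in 35 members and no Ccr7 or Fscn1 UMI in 53.

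**Figure D1:**
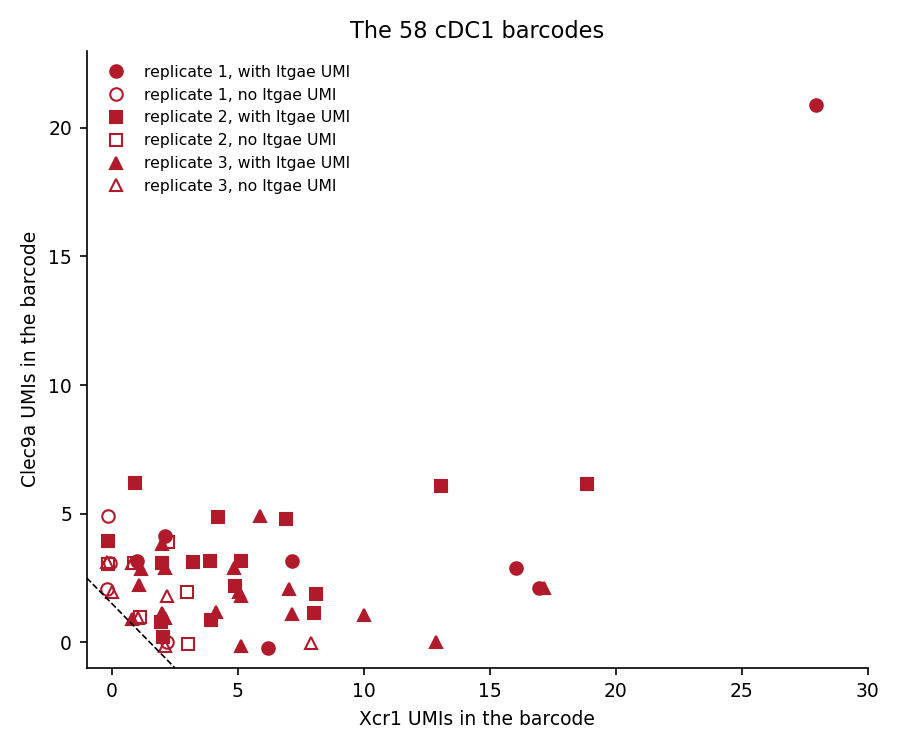
Xcr1 UMIs (x axis) against Clec9a UMIs (y axis) of every member, 1 point per barcode with its library shown by the marker and a small random shift so that equal values can be told apart; filled points also hold an Itgae UMI, and the dashed line runs just under the lower limit of 2 UMIs in all. Most points hold UMIs of both genes, and 16 lie at 2 or 3 UMIs in all, next to the limit.

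Many members lay close to the lower limit. There were 8 members with 2 and 8 with 3 UMIs of Xcr1 and Clec9a, and 23 barcodes with 1 UMI met every other limit. Another 2 barcodes were left out for C1q UMIs, 8 for Ccr7 and Fscn1 UMIs, 2 for low depth and 2 for mitochondrial UMIs. As a share of the passing barcodes, cDC1 made up 2.21% in replicate 1 (11 of 498, exact Clopper-Pearson 95% interval 1.11 to 3.92%), 1.99% in replicate 2 (22 of 1105, 1.25 to 3.0%) and 2.33% in replicate 3 (25 of 1072, 1.51 to 3.42%). The mean was 2.18% with an SD of 0.173 (n = 3), and the 3 intervals overlap. These intervals cover counting error only, and asking for 1 UMI or for 4 UMIs moved the mean to 3.21% or 1.58%.

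Total depth was 6777422 UMIs over 881 barcodes in replicate 1, 13336484 over 2839 in replicate 2 and 11017170 over 2015 in replicate 3. Members were deep: their median was 16214.5 UMIs, against 14666.5 in Cd209a dendritic cells and 8574 in all other passing barcodes. Since the rule asks for UMIs of rare transcripts, deep barcodes pass it more easily. The part of depth in the levels and calls was tested by thinning every barcode to 2000 UMIs and by a minimum of 4000 UMIs. Members were chosen before thinning, so thinning cannot show how depth shaped their choice. The median mitochondrial share was 1.99% in cDC1, 2.02% in Cd209a dendritic cells and 2.92% in all other barcodes. Replicates 2 and 3 shared 33 barcode sequences, replicates 1 and 3 shared 1, and replicates 1 and 2 shared none. In 31 of the 33, 1 of the copies had under 2000 UMIs, and 2 members were among the 33. None of the barcodes with the highest doublet scores was a member.

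Replicate 1 held 3 members that carried marker genes of other cell types, and all 3 passed on Clec9a UMIs alone and had no Itgae UMI. The first had 56 UMIs of Siglech and 36 of Tcf4, markers of plasmacytoid dendritic cells, with 57 UMIs of Irf8, which those cells also express. The second had 12 UMIs of Itgam and 25 of Mgl2, and the third 68 of Cd209a, 34 of Mgl2 and 22 of Mki67; neither had an Irf8 UMI. They were kept, since the rule chose them, and results are given with and without them where they matter. They are called the doubtful members below, and without them the mean share was 1.98%.

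The cDC1 marker list holds Xcr1 and Clec9a, which the rule used, and 7 genes that it did not use (Itgae, Irf8, Batf3, Cadm1, Naaa, Wdfy4 and Tlr3). Those 7 summed to 4332, 3102 and 3292 CPM in cDC1 of replicates 1, 2 and 3, against 704, 540 and 442 CPM in Cd209a dendritic cells and 387, 342 and 345 CPM in all other barcodes. The 8 cDC2 markers summed to 1208, 258 and 164 CPM in cDC1, against 4509, 3526 and 3519 CPM in Cd209a dendritic cells and 2323, 1978 and 1978 CPM in all other barcodes. They include Cd209a, which chose the Cd209a dendritic cells. Without Cd209a the other 7 summed to 832, 250 and 153 CPM in cDC1. They summed to 3486, 2511 and 2322 CPM in Cd209a dendritic cells and 2073, 1788 and 1781 CPM in all other barcodes. Replicate 1 thus stood apart, and it also held the 3 members above. The 9 macrophage markers, with the C1q genes that the rule limits, summed to 262, 110 and 172 CPM in cDC1, against 6495, 13048 and 19065 CPM in all other barcodes, and Fcgr1, which encodes the macrophage receptor CD64, was at 0 in cDC1. The 8 plasmacytoid dendritic cell markers summed to 861, 198 and 229 CPM in cDC1, against 307, 455 and 507 CPM in all other barcodes, with replicate 1 the highest cDC1 library again. Of the T cell markers 6 of 8 were at 0 in cDC1, as were Cd79a and Pax5 of B cells and Gata3, Il13 and Klrg1 of group 2 innate lymphoid cells. B lineage RNA was not absent, since 4 of 7 B cell markers had UMIs in cDC1. Most were of Ighm, an immunoglobulin gene, with 108 UMIs in 35 of the 58 members. The B cell markers summed higher in cDC1 than in Cd209a dendritic cells in every library. Their sum was above that of all other barcodes in replicate 1 and below it in replicates 2 and 3. The part of these other cell types in the results was tested by leaving out the 3 doubtful members and by stricter limits on C1q UMIs. With at most 1 C1q UMI replicate 1 kept 9 cDC1 barcodes, under the minimum of 10 for a fit. Those fits thus also lost replicate 1 and cannot show the part of C1q UMIs alone. Removing barcodes with high doublet scores took out no member and no Cd209a dendritic cell, so it cannot show the part of other cell types.

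At equal depth, the cDC1 markers that the rule did not use were found more often in cDC1 than in all other barcodes. Each barcode was thinned to 2000 UMIs, and group 2 innate lymphoid cells served as a class that should lack these genes (456 barcodes with at least 3 of 8 ILC2 markers, median depth 7138 UMIs, against 16214.5 in cDC1). Irf8 was found in 81.8, 86.4 and 88.0% of cDC1 in replicates 1, 2 and 3, against a mean of 3.63% of Cd209a dendritic cells, 0.670% of innate lymphoid cells and 16.5% of all other barcodes. Itgae was found in 18.2, 45.5 and 24.0% of cDC1, a mean of 29.2% with an SD of 14.4 (n = 3), against means of 0.741% of Cd209a dendritic cells, 0.262% of innate lymphoid cells and 0.332% of all other barcodes. Naaa, which encodes a lysosomal amidase, was found in 54.5, 72.7 and 92.0% of cDC1, against means of 41.2% of Cd209a dendritic cells, 1.38% of innate lymphoid cells and 16.3% of all other barcodes.

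Without thinning, the means in cDC1 were 92.4% for Irf8, 69.5% for Itgae and 95.5% for Naaa, so the thinned shares are floors set by depth and not the shares of expressing cells. Batf3 was less selective, with thinned means of 23.3% in cDC1, 18.3% in Cd209a dendritic cells, 0.483% in innate lymphoid cells and 8.01% in all other barcodes. All 7 cDC1 markers that the rule did not use were more frequent in cDC1 than in all other barcodes in 3 of 3 libraries. An exact two-sided sign-flip test gave p = 0.25 for each, the smallest value that 3 libraries allow. Against Cd209a dendritic cells 6 of the 7 were more frequent in 3 of 3 libraries, and Batf3 in 2 of 3, with a mean difference of 5.03 percentage points and an SD of 6.21 (n = 3; exact sign-flip p = 0.50).

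**Figure D2:**
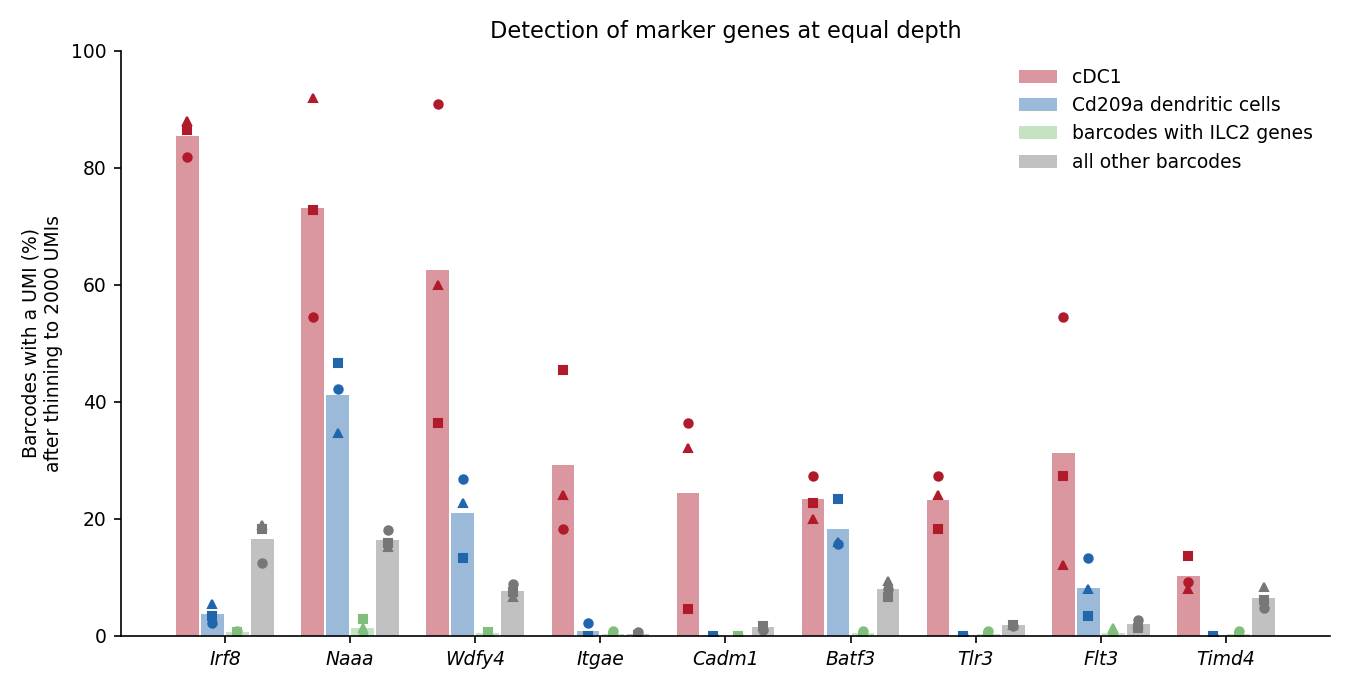
Share of barcodes with at least 1 UMI of a gene (y axis, %) after thinning every barcode to 2000 UMIs, in cDC1, Cd209a dendritic cells, the group 2 innate lymphoid cell gate and all other barcodes; points are the 3 libraries and bars their mean. Irf8 and Naaa were found in most thinned cDC1, while Itgae, Tlr3 and Cadm1 were found in fewer, with almost none in Cd209a dendritic cells.

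Compared with Cd209a dendritic cells of the same libraries, cDC1 held more RNA of most genes listed for cDC1 surface, uptake and cross-presentation functions. Counts were summed over the barcodes of a class in each library and tested with edgeR's quasi-likelihood test with the library as a block, and a gene was called at a Benjamini-Hochberg adjusted p under 0.05 over all genes tested. Of 5958 genes tested, 806 (13.5%) were called, 356 (5.98%) of them higher and 450 (7.55%) lower in cDC1. Of the 30 listed genes, 28 were looked up and 23 tested; 20 were called higher, Cybb was called lower, and Sec22b and Rab43 were not called. The median log2 fold change of these 23 was 2.72, against 0.00 over all genes tested. A gene can pass the filter on low counts through the class in which it is high, so the 23 do not stand for the whole list. Without the 3 doubtful members 973 of 5944 genes (16.4%) were called, 438 (7.37%) of them higher, and so were 21 of the 23 listed ones. Without replicate 2 the count of higher genes was 143, and without replicate 3 it was 194.

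Itgae, Gcsam, Tlr3 and Ifi205 were among the genes called higher. Itgae (chr11:73090583-73147446, plus strand) stood at 218, 208 and 218 CPM in cDC1 of replicates 1, 2 and 3, against 1.11, 0 and 0 CPM in Cd209a dendritic cells. Over all libraries that was 204 UMIs against 1, a ratio of 586 with an exact 95% counting interval of 104 to 23255. Gcsam, which encodes a signalling adaptor first described in germinal centre B cells, had 75 UMIs in cDC1 and none in Cd209a dendritic cells, so it was at least 71.8-fold higher against a floor of 3 counts over the class. Tlr3, the endosomal receptor for double-stranded RNA, stood at 223, 138 and 167 CPM in cDC1, against 2.22, 1.11 and 4.25 CPM in Cd209a dendritic cells, a log2 fold change of 6.04 ± 0.36 (SE; adjusted p = 1.29e-07, edgeR). The classes did not overlap for any of these genes in any library. Here and below, such statements describe named genes, most of them already called. The share of all tested genes without overlap is not given, so they add no support to a call. Ifi205, an interferon-inducible gene of a multigene family whose copies may share reads, stood at 559, 581 and 576 CPM in cDC1, against 1.11, 26.6 and 14.9 CPM in Cd209a dendritic cells, a log2 fold change of 5.45 ± 0.39 (SE; adjusted p = 6.80e-07).

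Other genes of this list were called higher as well, and Cybb lower. Naaa stood at 1332, 1004 and 997 CPM in cDC1, against 354, 307 and 209 CPM in Cd209a dendritic cells (log2 fold change 2.01 ± 0.17 SE, adjusted p = 3.96e-06, edgeR). Wdfy4, needed for cross-presentation of cell-bound antigen, stood at 753, 348 and 336 CPM in cDC1, against 213, 82.0 and 113 CPM in Cd209a dendritic cells (1.87 ± 0.19 SE, adjusted p = 2.02e-05). Ppt1, a lysosomal thioesterase, stood at 460, 611 and 783 CPM in cDC1, against 51.0, 59.9 and 56.4 CPM in Cd209a dendritic cells (3.50 ± 0.21 SE, adjusted p = 1.29e-07). No library overlapped between the classes for these 3 genes, and replicate 1 was the highest cDC1 library for Naaa and Wdfy4 and the lowest for Ppt1. Cadm1, an adhesion molecule, had 124 UMIs in cDC1 against 2 in Cd209a dendritic cells, a ratio of 178 (exact interval 48.3 to 1487). Ly75, the uptake receptor DEC-205, had 24 UMIs in cDC1 against 3 in Cd209a dendritic cells, which held more UMIs in all. Cd24a rose by a log2 fold change of 0.99 ± 0.19 (SE; adjusted p = 0.00255), but its adjusted p was 0.0641 without replicate 3. Dpp4, a surface peptidase, rose by 1.10 ± 0.22 (SE; adjusted p = 0.00365), with an adjusted p of 0.0541 without replicate 2. Cybb, the membrane subunit of the phagocyte NADPH oxidase, fell to 149, 10.0 and 22.6 CPM in cDC1, against 456, 374 and 324 CPM in Cd209a dendritic cells (-3.07 ± 0.42 SE, adjusted p = 2.10e-04).

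**Figure D3:**
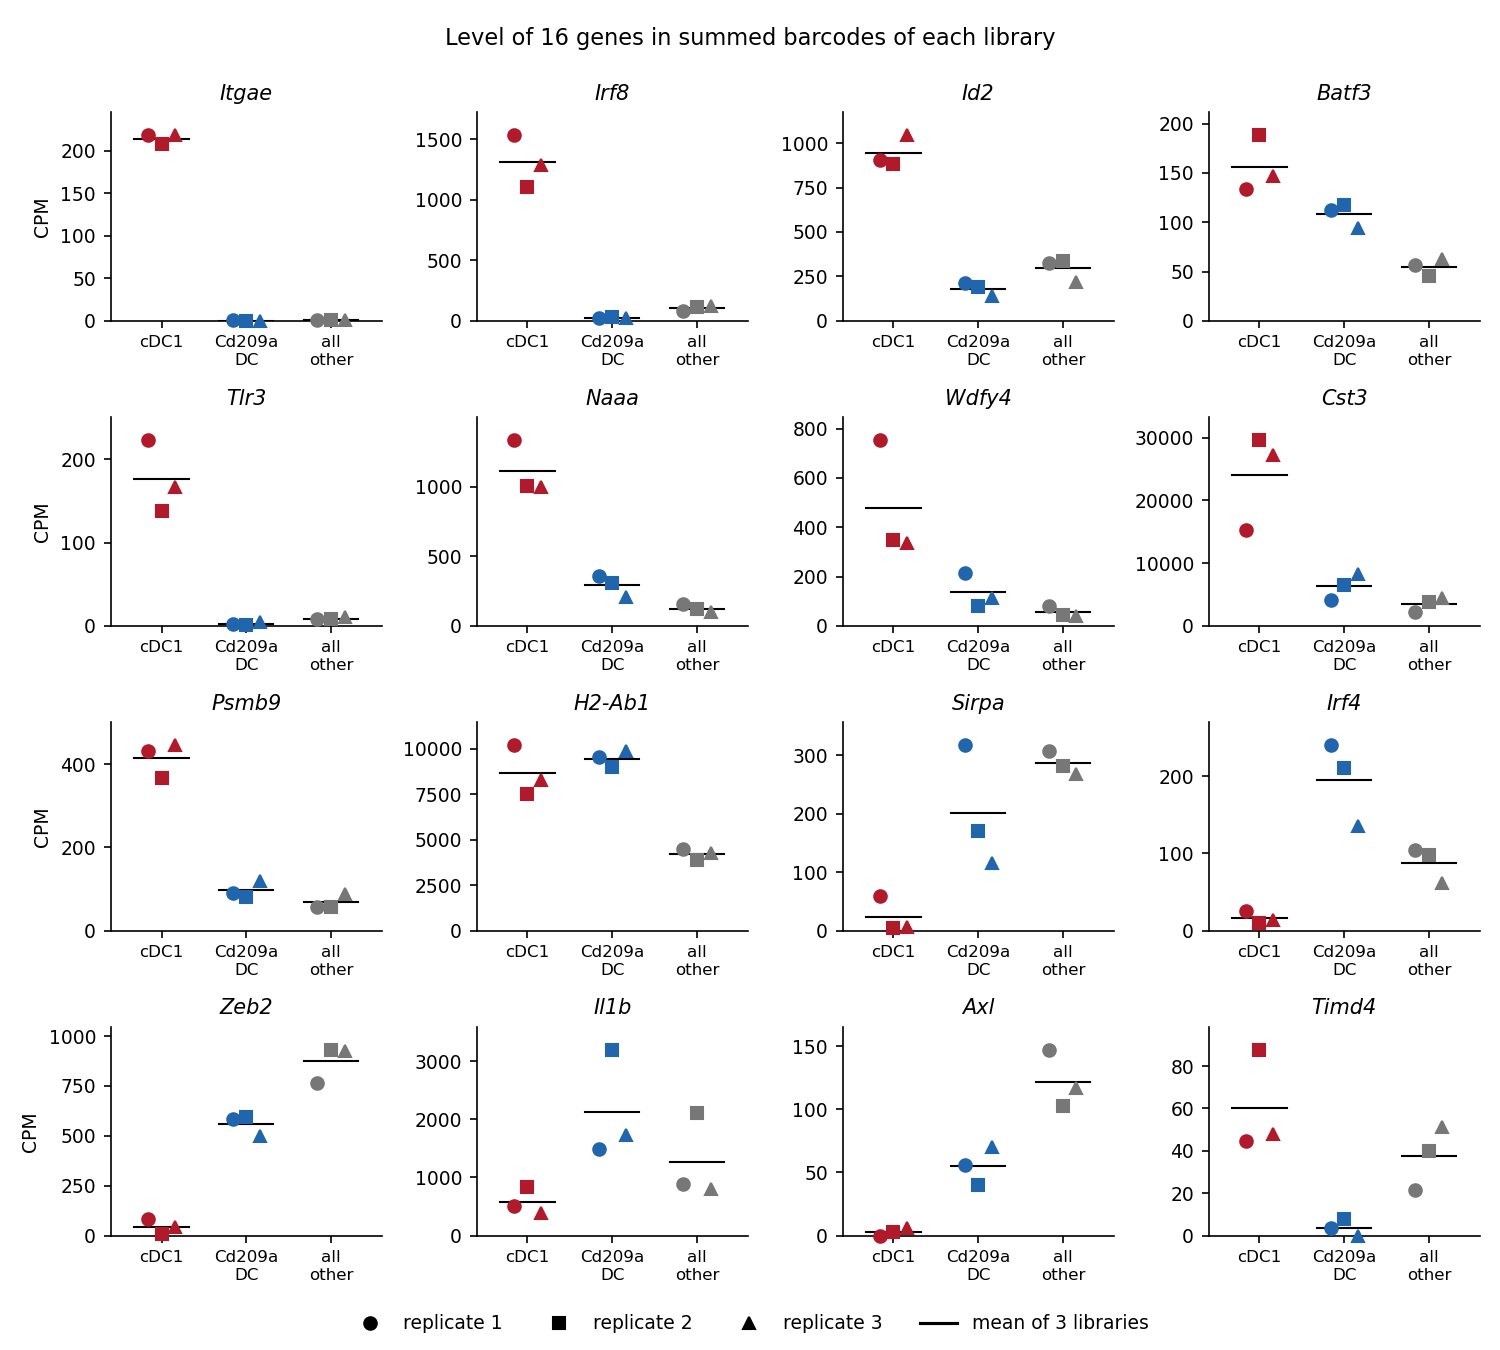
Level of selected genes (CPM, linear axis from 0, 1 panel per gene) in cDC1, Cd209a dendritic cells and all other barcodes; each point is 1 library and markers show the replicate. Itgae, Irf8 and Tlr3 were far higher in all 3 cDC1 libraries than in any library of the other classes, Batf3 and H2-Ab1 lay close in both dendritic cell classes, and Irf4, Sirpa, Zeb2 and Il1b were lower in cDC1 than in Cd209a dendritic cells.

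The promoters of the listed genes were searched for short motifs that factors of the cDC1 programme are known to bind. RefSeq promoter windows (GRCm38.p6, the 250 bases before the gene start) were matched for 29 of 36 genes sought. A pair of GAAA cores with any 2 bases between them, as in interferon response elements, was found on either strand in 4 of the 29 (Ifi205, Dpp4, Cybb and Apol7c) and in 3.46% of the 27025 genes with a window. The 2 windows below belong to genes called higher in cDC1, Ifi205 (chr1:174031756-174032005, minus strand) and Dpp4 (chr2:62412232-62412481, minus strand), and the motif, read on the opposite strand in Dpp4, is in capitals.
Ifi205: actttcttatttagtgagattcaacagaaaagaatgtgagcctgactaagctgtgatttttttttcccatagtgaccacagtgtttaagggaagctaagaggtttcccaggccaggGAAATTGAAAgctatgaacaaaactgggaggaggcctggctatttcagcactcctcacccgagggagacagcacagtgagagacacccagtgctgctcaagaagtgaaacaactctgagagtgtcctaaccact
Dpp4: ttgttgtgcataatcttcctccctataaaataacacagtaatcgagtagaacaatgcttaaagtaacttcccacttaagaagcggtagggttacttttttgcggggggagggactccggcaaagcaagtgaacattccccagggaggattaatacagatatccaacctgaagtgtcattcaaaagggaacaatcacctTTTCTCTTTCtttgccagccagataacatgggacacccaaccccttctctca
A GGAA core followed by any 2 bases and GAAA, a composite of a PU.1 core and an IRF core, was found in Cd8a alone of the 29 and in 2.68% of all genes, and no window of the 29 held both of these pairs. TGANTCA, bound by AP-1 factors such as BATF3 with its partners, was found in Cd207, Havcr2, Cybb and Zbtb46 and in 7.82% of all genes. The windows of both gate genes, Xcr1 (chr9:123862030-123862279, minus strand) and Clec9a (chr6:129408612-129408861, plus strand), are printed because they define the class; none of these letters occurs in them, so they hold no capitals.
Xcr1: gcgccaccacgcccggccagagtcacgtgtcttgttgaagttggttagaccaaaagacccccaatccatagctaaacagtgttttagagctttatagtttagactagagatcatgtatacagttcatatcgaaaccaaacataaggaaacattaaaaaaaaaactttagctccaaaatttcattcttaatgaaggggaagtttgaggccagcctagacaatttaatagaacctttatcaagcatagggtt
Clec9a: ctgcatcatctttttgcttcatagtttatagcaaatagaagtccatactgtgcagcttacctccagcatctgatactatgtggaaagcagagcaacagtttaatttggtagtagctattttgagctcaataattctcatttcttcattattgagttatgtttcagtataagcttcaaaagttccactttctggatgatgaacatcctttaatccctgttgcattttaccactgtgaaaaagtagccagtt
A match describes letters in a window and is neither a bound site nor a cause, and enhancers outside the windows were not searched.

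Among 19 lineage transcription factors tested against Cd209a dendritic cells, Irf8, Id2 and Cbfa2t3 were called higher, Zeb2, Irf4 and Batf lower, and 13 were not called. The median log2 fold change was 0.14. The shares over all genes tested were 5.98% higher and 7.55% lower. Irf8 (chr8:120736358-120756694, plus strand) stood at 1530, 1102 and 1288 CPM in cDC1, against 21.1, 31.0 and 20.2 CPM in Cd209a dendritic cells, a log2 fold change of 5.79 ± 0.24 (SE; adjusted p = 5.19e-09, edgeR). Id2, an inhibitor of E proteins, stood at 906, 881 and 1043 CPM in cDC1, against 213, 188 and 140 CPM in Cd209a dendritic cells (2.45 ± 0.20 SE, adjusted p = 2.33e-06). Irf4 stood at 24.8, 10.0 and 14.1 CPM in cDC1, against 240, 211 and 136 CPM in Cd209a dendritic cells (-3.59 ± 0.30 SE, adjusted p = 3.34e-06). Zeb2, a repressor that opposes the cDC1 fate in mouse progenitors, was at 84.2, 7.51 and 42.4 CPM in cDC1, against 585, 593 and 501 CPM in Cd209a dendritic cells (-3.82 ± 0.38 SE, adjusted p = 1.40e-05). For these 4 factors the classes did not overlap in any library.

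Batf3, which cDC1 need to develop, did not separate the classes as sharply as Irf8. It stood at 134, 188 and 147 CPM in cDC1, against 112, 117 and 94.6 CPM in Cd209a dendritic cells (log2 fold change 0.60 ± 0.20 SE, adjusted p = 0.0706, edgeR), higher in 3 of 3 libraries without overlap but not called. Without the 3 doubtful members it was called (0.73, adjusted p = 0.0179), as it was without replicate 1 (adjusted p = 0.0289). Zbtb46, a factor shared by conventional dendritic cells, stood at 49.5, 32.5 and 48.0 CPM in cDC1, against 49.9, 37.7 and 35.1 CPM in Cd209a dendritic cells (0.14 ± 0.30 SE, adjusted p = 0.829), and its estimate turned to -0.06 without replicate 3. Batf, a relative of Batf3, fell by a log2 fold change of 2.45 (SE 0.33; adjusted p = 2.04e-04). Cbfa2t3, a corepressor, rose by 0.75 ± 0.18 (SE; adjusted p = 0.0106), with adjusted p of 0.0900 without replicate 2 and 0.0746 without replicate 3.

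Of 16 cDC2 genes tested, 14 were called lower in cDC1, Epcam was called higher and Itgax was not called, with a median of -2.45. Cd209a chose the other class, so this direction is not independent of that choice. Sirpa stood at 59.4, 5.01 and 5.65 CPM in cDC1, against 317, 171 and 116 CPM in Cd209a dendritic cells (log2 fold change -3.40 ± 0.37 SE, adjusted p = 2.71e-05, edgeR). Itgam stood at 129, 7.51 and 11.3 CPM in cDC1, against 409, 284 and 222 CPM in Cd209a dendritic cells (-3.07 ± 0.42 SE, adjusted p = 2.32e-04). In both genes replicate 1, which held the 3 doubtful members, was the highest cDC1 library, and without that replicate Itgam was at -4.67. Clec10a and Mgl2, lectins that bind galactose-type sugars, were highest in replicate 1 of cDC1 too, with Mgl2 at 371, 12.5 and 45.2 CPM in cDC1, against 1819, 1491 and 1412 CPM in Cd209a dendritic cells. The log2 fold change of Clec10a was -3.90 (SE 0.48; adjusted p = 9.39e-05), or -5.96 without the 3 doubtful members. Epcam, an epithelial adhesion molecule also found on some skin and gut dendritic cells, stood at 24.8, 32.5 and 87.6 CPM in cDC1, against 7.77, 1.11 and 31.9 CPM in Cd209a dendritic cells (2.02 ± 0.47 SE, adjusted p = 0.00919; 0.0652 without replicate 2).

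For MHC class I presentation, 6 of 19 genes tested were called higher in cDC1, 1 lower and 12 were not called, with a median of 0.36. Over all genes tested, 5.98% were called higher and 7.55% lower. The 6 were the peptide transporter genes Tap1 and Tap2, the immunoproteasome subunit genes Psmb8 and Psmb9, and the proteasome activator genes Psme1 and Psme2. Psmb9 stood at 431, 368 and 446 CPM in cDC1, against 89.9, 82.0 and 120 CPM in Cd209a dendritic cells (log2 fold change 2.15 ± 0.19 SE, adjusted p = 6.02e-06, edgeR). Psme1 stood at 683, 844 and 805 CPM in cDC1, against 274, 264 and 340 CPM in Cd209a dendritic cells (1.47 ± 0.18 SE, adjusted p = 8.88e-05). Psmb8 rose by 1.21 ± 0.18 (SE; adjusted p = 3.48e-04). Tap1 rose by 1.22 ± 0.22 (SE; adjusted p = 0.00178) and Tap2 by 1.28 ± 0.25 (SE; adjusted p = 0.00338), with adjusted p of 0.0593 and 0.118 without replicate 2. The class I chains themselves were not higher. H2-K1 stood at 817, 734 and 678 CPM in cDC1, against 1093, 1105 and 1024 CPM in Cd209a dendritic cells (-0.48 ± 0.15 SE, adjusted p = 0.0476), a call lost without any 1 of the 3 replicates, with adjusted p between 0.0651 and 0.312. B2m, the shared light chain, was not called (-0.05 ± 0.15 SE, adjusted p = 0.867) and stood at 1362, 1109 and 1028 CPM in cDC1, against 1271, 1227 and 1243 CPM in Cd209a dendritic cells, so that the classes overlapped.

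For MHC class II presentation, 2 of 14 genes tested were called higher and 4 lower against Cd209a dendritic cells, with a median of -0.12. The shares over all genes tested were 5.98% higher and 7.55% lower. H2-Ab1, a class II beta chain, stood at 10194, 7499 and 8304 CPM in cDC1, against 9528, 8981 and 9870 CPM in Cd209a dendritic cells (log2 fold change -0.08 ± 0.10 SE, adjusted p = 0.684, edgeR), and the classes overlapped. Cd74, the invariant chain, was at 19784, 23272 and 25712 CPM in cDC1, against 22584, 31288 and 34503 CPM in Cd209a dendritic cells (-0.29 ± 0.08 SE, adjusted p = 0.0293; 0.161 without replicate 1 and 0.494 without replicate 3). The inhibitory chaperone chain H2-Ob was called higher (1.20 ± 0.22 SE, adjusted p = 0.00178; 0.0620 without replicate 2). H2-DMb2, a chain of the chaperone that H2-O inhibits, was called lower (-1.17 ± 0.25 SE, adjusted p = 0.00585; 0.150 without replicate 2). The other calls were March1, a ubiquitin ligase for class II, which rose by 1.12 ± 0.32 (SE; adjusted p = 0.0311; 0.345 without replicate 2), and the proteases Ctss and Lgmn, which fell. Ctss fell by 1.01 (SE 0.16; adjusted p = 6.17e-04) and Lgmn by 1.22 (SE 0.28; adjusted p = 0.00865), the Lgmn call being lost without replicate 2 (0.0970) or replicate 3 (0.109).

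**Figure D4:**
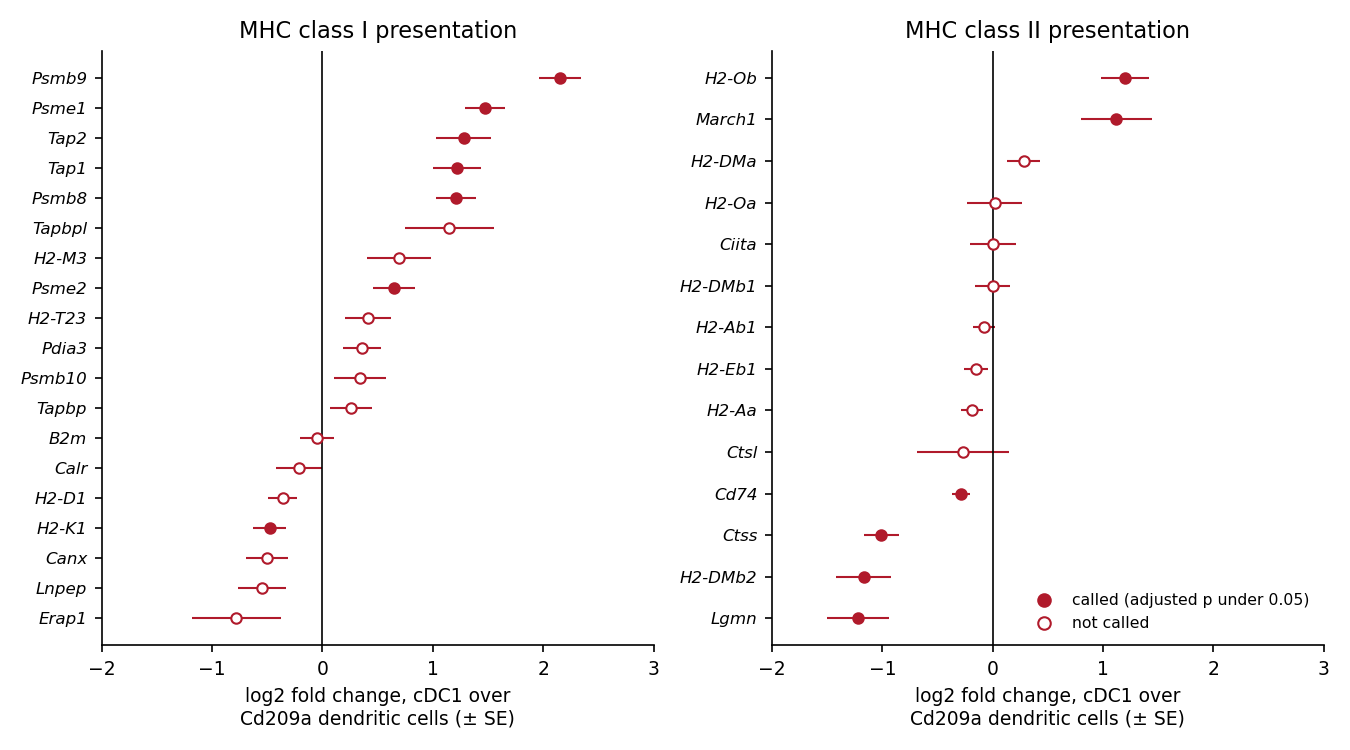
Log2 fold change in cDC1 over Cd209a dendritic cells (x axis, bars are SE) of every tested gene of the MHC class I list (left) and class II list (right); filled points were called. The immunoproteasome, proteasome activator and Tap genes lie to the right of 0, while most class II chains lie near 0.

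Of 17 cytokine and chemokine genes tested, 14 were called lower in cDC1 than in Cd209a dendritic cells, with a median of -1.93, and Il18, Tgfb1 and Cxcl16 were not called. Il1b stood at 510, 839 and 396 CPM in cDC1, against 1484, 3191 and 1723 CPM in Cd209a dendritic cells (log2 fold change -1.81 ± 0.16 SE, adjusted p = 3.96e-06, edgeR). Tnf stood at 19.8, 17.5 and 48.0 CPM in cDC1, against 154, 101 and 190 CPM in Cd209a dendritic cells (-2.29 ± 0.28 SE, adjusted p = 8.33e-05). Cxcl2, which draws neutrophils, stood at 19.8, 65.1 and 22.6 CPM in cDC1, against 463, 379 and 215 CPM in Cd209a dendritic cells (-3.11 ± 0.30 SE, adjusted p = 1.31e-05). The classes did not overlap for these 3 genes. Cxcl10, a ligand of CXCR3, was more uneven at 0, 20.0 and 102 CPM in cDC1, against 305, 738 and 207 CPM in Cd209a dendritic cells (-3.14 ± 0.60 SE, adjusted p = 0.00270; -2.12 and 0.134 without replicate 2, -5.46 without replicate 3), and 22 of its 44 cDC1 UMIs came from 1 barcode. Il6 and Ccl5 were also called lower, with Il6 at an adjusted p of 0.0569 without replicate 2 and Ccl5 at -4.93, or -3.27 without replicate 2.

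The tested maturation genes and genes induced by cell dissociation were called lower than in Cd209a dendritic cells or not called. Of 30 maturation and migration genes listed, 15 were tested. Of these, 4 were called lower (Cd80, Marcksl1, Samsn1 and Arl5c), beside 7.55% of all genes tested, and the rest were not called, with a median of -0.82. Both classes were limited in Ccr7 and Fscn1 UMIs, which keeps mature cells out of each. Cd80, a co-stimulatory ligand, stood at 59.4, 55.1 and 19.8 CPM in cDC1, against 216, 219 and 111 CPM in Cd209a dendritic cells (log2 fold change -2.0 ± 0.24 SE, adjusted p = 7.72e-05, edgeR; 0.0979 after thinning). Its partner Cd86 stood at 129, 185 and 164 CPM in cDC1, against 129, 123 and 86.1 CPM in Cd209a dendritic cells and was not called (0.59 ± 0.22 SE, adjusted p = 0.0979, edgeR). Its adjusted p was 0.0208 without the 3 doubtful members and 0.0115 without replicate 1. Without replicate 3 its log2 fold change was 0.39, with an adjusted p of 0.505. Of 20 dissociation and immediate early genes tested, 7 were called lower and the rest were not called, with a median of -0.52. Nfkbia, the inhibitor of NF-kB that NF-kB itself induces, stood at 1010, 1062 and 461 CPM in cDC1, against 2242, 2098 and 1631 CPM in Cd209a dendritic cells (-1.26 ± 0.17 SE, adjusted p = 2.38e-04). Junb fell by 0.94 (SE 0.19; adjusted p = 0.00327; 0.0916 without replicate 3). These 7 genes were called lower beside the 14 cytokine and chemokine genes, and their part in that result was not tested.

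Of 15 genes for nucleic acid sensing and the interferon response, 3 were called higher, Irf7 and Mx1 among them, and Ifih1 and Isg15 lower, with a median of 0.28. Over all genes tested, 5.98% were called higher and 7.55% lower. Mx1, an interferon-induced antiviral GTPase, stood at 14.9, 30.0 and 161 CPM in cDC1, against 7.77, 7.76 and 25.5 CPM in Cd209a dendritic cells (log2 fold change 2.26 ± 0.38 SE, adjusted p = 0.00101, edgeR), and replicate 3 was the highest in both classes. Irf7, a regulator of type I interferon, stood at 24.8, 42.6 and 17.0 CPM in cDC1, against 3.33, 1.11 and 6.38 CPM in Cd209a dendritic cells (2.93 ± 0.63 SE, adjusted p = 0.00618; 0.206 without replicate 2). Isg15, a ubiquitin-like protein, went the other way at 0, 37.6 and 98.9 CPM in cDC1, against 96.5, 225 and 103 CPM in Cd209a dendritic cells (-1.51 ± 0.47 SE, adjusted p = 0.0474; -0.93 and 0.527 without replicate 2, -2.89 without replicate 3). Single barcodes weigh on these genes: 40 of the 72 Mx1 UMIs in cDC1, 29 of the 50 Isg15 UMIs and 15 of the 28 Irf7 UMIs each came from 1 member.

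Receptors for growth factors and chemokines were split. Of 21 cytokine receptor genes tested, Flt3 and Ifngr1 were called higher and 7 lower (Csf1r, Il10ra, Il1r2, Il4ra, Il6ra, Tnfrsf1b and Il2rg), with a median of -0.28. Over all genes tested, 5.98% were called higher and 7.55% lower, and the count of higher receptors lies near that share. Flt3, whose ligand sustains dendritic cells, stood at 277, 153 and 98.9 CPM in cDC1, against 82.1, 41.0 and 39.3 CPM in Cd209a dendritic cells (log2 fold change 1.73 ± 0.22 SE, adjusted p = 1.42e-04, edgeR). Csf1r, the receptor that sustains macrophages, stood at 29.7, 12.5 and 14.1 CPM in cDC1, against 128, 113 and 80.8 CPM in Cd209a dendritic cells (-2.54 ± 0.32 SE, adjusted p = 1.20e-04). Both genes separated the classes without overlap. Ifngr1 rose by 0.66 ± 0.19 (SE; adjusted p = 0.0283), a call lost without replicate 2 (0.210) or replicate 3 (0.0936).

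Of 11 chemokine and migration receptor genes tested, Cxcr3, P2ry10 and P2ry14 were called higher and 3 lower, Ccr1 and Cxcr4 among them, with a median of -0.08. The shares over all genes tested were 5.98% higher and 7.55% lower. Cxcr3, the receptor for CXCL9 and CXCL10, stood at 29.7, 37.6 and 42.4 CPM in cDC1, against 2.22, 0 and 2.13 CPM in Cd209a dendritic cells (log2 fold change 4.55 ± 0.63 SE, adjusted p = 2.33e-04, edgeR). P2ry14, a receptor for UDP-glucose, stood at 64.4, 55.1 and 65.0 CPM in cDC1, against 12.2, 18.8 and 10.6 CPM in Cd209a dendritic cells (2.18 ± 0.35 SE, adjusted p = 7.30e-04). Ccr1, a receptor for inflammatory CC chemokines, stood at 14.9, 7.51 and 2.83 CPM in cDC1, against 144, 114 and 113 CPM in Cd209a dendritic cells (-3.93 ± 0.39 SE, adjusted p = 1.32e-05). None of these 3 receptors overlapped between the classes. Itgb7, the beta chain that pairs with CD103, was not called (0.44 ± 0.18 SE, adjusted p = 0.146) and stood at 342, 270 and 300 CPM in cDC1, against 240, 195 and 264 CPM in Cd209a dendritic cells. P2ry10 was called at 0.78 ± 0.21 (SE; adjusted p = 0.0239; 0.285 without replicate 2 and 0.0863 without replicate 3).

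Of 10 uptake and scavenging genes tested, Timd4, Havcr2 and Cd36 were called higher and Axl, Cd163, Lrp1 and Cd300a lower, with a median of -0.36. Over all genes tested, 5.98% were called higher and 7.55% lower. Timd4, a phosphatidylserine receptor, stood at 44.6, 87.6 and 48.0 CPM in cDC1, against 3.33, 7.76 and 0 CPM in Cd209a dendritic cells (log2 fold change 4.08 ± 0.51 SE, adjusted p = 9.96e-05, edgeR). Havcr2, which encodes TIM-3, stood at 218, 168 and 167 CPM in cDC1, against 73.2, 38.8 and 68.0 CPM in Cd209a dendritic cells (1.69 ± 0.23 SE, adjusted p = 1.92e-04). Cd36, a scavenger receptor, stood at 74.3, 80.1 and 119 CPM in cDC1, against 11.1, 24.4 and 4.25 CPM in Cd209a dendritic cells (2.86 ± 0.42 SE, adjusted p = 4.07e-04). All 3 were higher in every library without overlap, whereas Axl, a receptor kinase for phosphatidylserine bridging proteins, had 3 UMIs in cDC1 against 152 in Cd209a dendritic cells, a ratio of 0.0567 (exact interval 0.0116 to 0.169). Lrp1, a large scavenger receptor, stood at 9.90, 20.0 and 19.8 CPM in cDC1, against 142, 124 and 125 CPM in Cd209a dendritic cells (-2.80 ± 0.32 SE, adjusted p = 3.95e-05).

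Of 17 cathepsin, cystatin and lysosome genes tested, 8 were called lower, Cst3 and Psap were called higher and the rest were not called, with a median of -0.45. Cst3, the secreted inhibitor of cysteine cathepsins, stood at 15239, 29557 and 27168 CPM in cDC1, against 4057, 6460 and 8259 CPM in Cd209a dendritic cells (log2 fold change 1.99 ± 0.11 SE, adjusted p = 9.59e-08, edgeR). Ctsd, an aspartic protease of lysosomes, stood at 9.90, 17.5 and 11.3 CPM in cDC1, against 104, 110 and 59.5 CPM in Cd209a dendritic cells (-2.65 ± 0.35 SE, adjusted p = 1.50e-04). Neither gene overlapped between the classes. Psap, the precursor of the saposins, rose by 0.52 ± 0.13 (SE; adjusted p = 0.0174; 0.351 without replicate 3), and Lamp1, a lysosomal membrane protein, fell by 1.73 (SE 0.23; adjusted p = 2.04e-04). Of 10 C-type lectins tested, Clec12a and Ly75 were called higher and 6 lower, with a median of -1.85. Clec12a, an inhibitory receptor for crystals of dead cells, stood at 104, 148 and 198 CPM in cDC1, against 36.6, 72.0 and 45.7 CPM in Cd209a dendritic cells (1.60 ± 0.25 SE, adjusted p = 5.84e-04). Aldh1a2, which makes retinoic acid, and Dhrs3 were the 2 genes called lower of 8 tested for retinoic acid and TGF-beta activation, with a median of -0.46. Aldh1a2 was at 9.90, 7.51 and 2.83 CPM in cDC1, against 55.5, 47.7 and 25.5 CPM in Cd209a dendritic cells (-2.61 ± 0.47 SE, adjusted p = 0.00182). Of 9 co-stimulation and co-inhibition genes, Btla was called higher and Icosl, Tnfsf9, Pvr and Icam1 lower, with a median of -0.87. Beside the lists of this paragraph, 5.98% of all genes tested were called higher and 7.55% lower.

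Of 20 proliferation genes tested, 1 was called higher and 5 lower, with a median of 0.04, beside 5.98% higher and 7.55% lower over all genes. Without the 3 doubtful members 4 were called higher and 7 lower, with a median of -0.25. Top2a, a topoisomerase of dividing cells, stood at 79.2, 60.1 and 17.0 CPM in cDC1, against 213, 141 and 131 CPM in Cd209a dendritic cells (log2 fold change -1.64 ± 0.29 SE, adjusted p = 0.00151, edgeR). Mki67 was not called (-0.96 ± 0.35 SE, adjusted p = 0.0879, edgeR), but it was without the 3 doubtful members, 1 of which held 22 of its UMIs (-1.39, adjusted p = 0.0173). Leaving out replicate 1, 2 or 3 gave Mki67 -1.02, -1.60 or -0.38, with adjusted p of 0.0155, 0.0649 and 0.543. The called gene in the other direction was H2afz, a histone variant (0.66 ± 0.14 SE, adjusted p = 0.00614; 0.36 and 0.282 after thinning). At least 3 UMIs of 11 mitosis genes were found after thinning in 9.09, 9.09 and 8.0% of cDC1 in replicates 1, 2 and 3 (1 of 11, 2 of 22 and 2 of 25). The shares were 17.8, 11.7 and 9.33% in Cd209a dendritic cells and 3.29, 3.42 and 4.87% in all other barcodes, and no test of these differences was made.

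**Figure D5:**
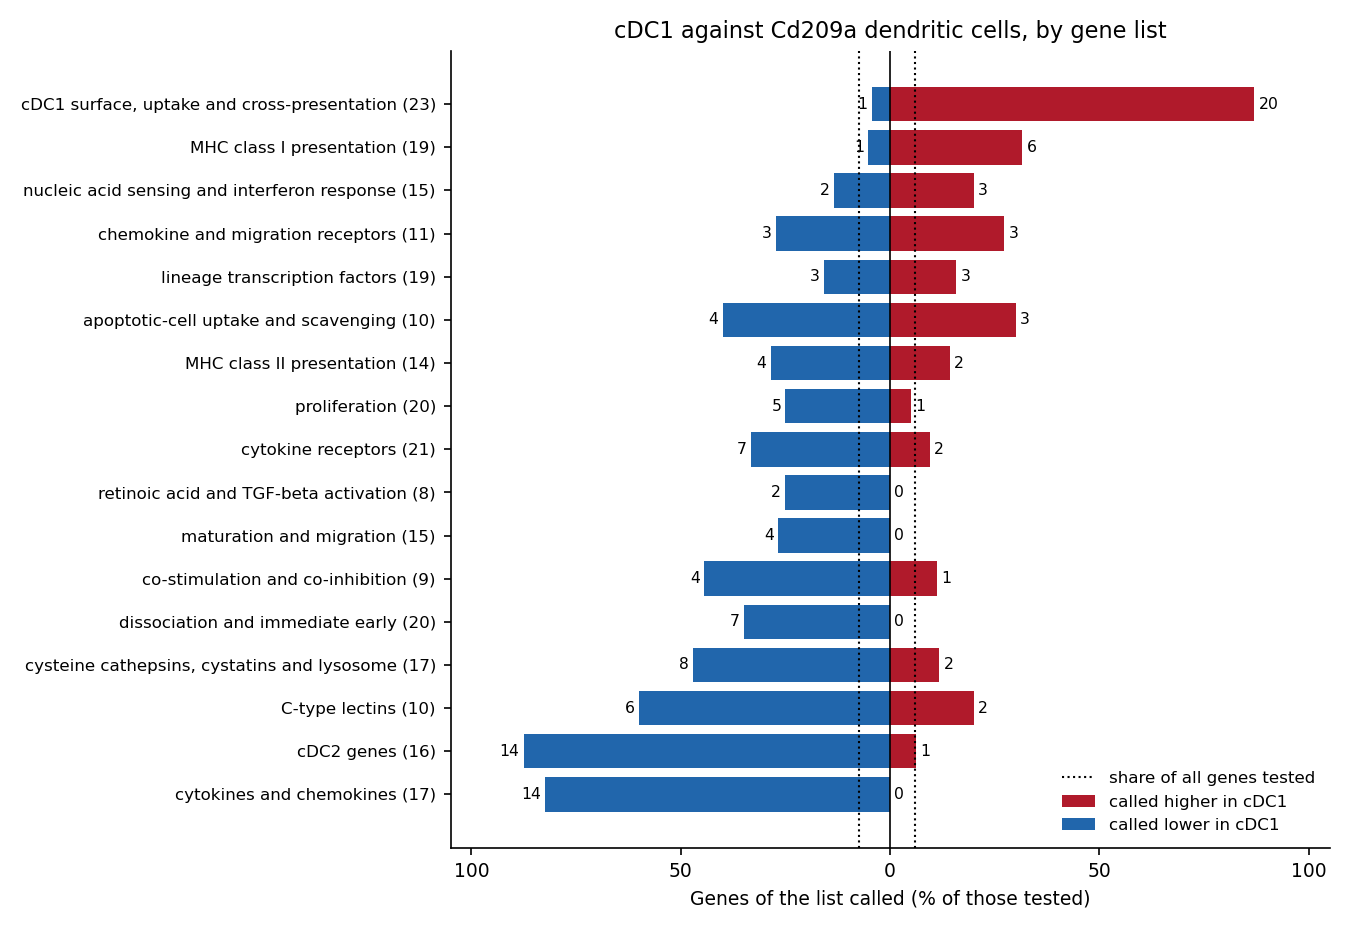
Genes called higher (right of 0) and lower (left of 0) in cDC1 than in Cd209a dendritic cells, as a percentage of the tested genes of each list; numbers are genes, those in brackets the genes tested, and dotted lines the shares over all genes tested (5.98% and 7.55%). The cDC1 list lies almost wholly to the right, and the cDC2 genes and the cytokines almost wholly to the left.

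Ranked by size against Cd209a dendritic cells, the 10 largest rises among genes with at least 50 CPM in cDC1 included Tlr3, Irf8, AC163354.1, Ifi205, Agpat3, Tbc1d4, A530099J19Rik, Btla and Cystm1. Tbc1d4, a Rab GTPase-activating protein of vesicle traffic, stood at 248, 203 and 170 CPM in cDC1, against 16.6, 5.54 and 8.51 CPM in Cd209a dendritic cells (log2 fold change 4.39 ± 0.30 SE, adjusted p = 3.28e-07, edgeR). Btla, an inhibitory receptor for HVEM, stood at 153, 95.1 and 73.5 CPM in cDC1, against 2.22, 8.87 and 5.32 CPM in Cd209a dendritic cells (4.24 ± 0.41 SE, adjusted p = 1.16e-05). Each was higher in 3 of 3 libraries without overlap. The 10 largest falls were Ccl5, Retnla, Pltp, Mgl2, Capg, Cebpb, Fcgr3, Ccr1, Clec10a and Plaur. Retnla, a secreted product of alternatively activated myeloid cells, stood at 34.7, 40.1 and 14.1 CPM in cDC1, against 888, 972 and 181 CPM in Cd209a dendritic cells (-4.37 ± 0.26 SE, adjusted p = 1.29e-07; -2.79 after thinning). Cebpb, a myeloid transcription factor, stood at 34.7, 20.0 and 8.48 CPM in cDC1, against 270, 509 and 243 CPM in Cd209a dendritic cells (-4.10 ± 0.32 SE, adjusted p = 1.76e-06).

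Set against all other passing barcodes, cDC1 had most tested genes of the cDC1 list and of the MHC class II list called higher. Barcodes with over 5 C1q UMIs made up 57.7% of those passing, and the rule keeps them out of cDC1, so low macrophage genes follow from the choice of members. Of 10284 genes tested, 2469 (24.0%) were called, 952 (9.26%) higher and 1517 (14.8%) lower in cDC1, with a median log2 fold change of -0.11 over all genes tested. Of 25 tested genes of the cDC1 list, 20 were called higher and 2 lower, with a median of 3.01. Without the 3 doubtful members 2840 of 10228 genes (27.8%) were called, and the cDC1 list still gave 20 higher and 2 lower. Without replicate 2 the count of higher genes was 356, and without replicate 3 it was 545.

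The 10 largest rises over all other barcodes were Itgae, Gcsam, A530099J19Rik, Sept3, Cldn1, Ifi205, Btla, Fcrla, Tlr3 and AC163354.1. Itgae stood at 218, 208 and 218 CPM in cDC1, against 1.60, 0.647 and 1.19 CPM in all other barcodes (log2 fold change 7.74 ± 0.29 SE, adjusted p = 1.77e-12, edgeR). Cldn1, a tight junction protein, stood at 99.0, 95.1 and 84.8 CPM in cDC1, against 1.77, 1.94 and 4.10 CPM in all other barcodes (5.28 ± 0.36 SE, adjusted p = 4.88e-09). Sept3, a septin GTPase, stood at 371, 168 and 181 CPM in cDC1, against 14.7, 3.42 and 3.78 CPM in all other barcodes (5.34 ± 0.26 SE, adjusted p = 4.94e-11). None of these overlapped between the classes. Flt3 was also higher, at a log2 fold change of 3.55 ± 0.22 (SE; adjusted p = 1.81e-09), and so was Irf8, at 3.74 ± 0.20 (SE; adjusted p = 2.44e-10).

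All 11 class II genes that were called higher over all other barcodes were chains, chaperone chains, Ciita or March1, while Ctss, Lgmn and Ctsl were called lower, with a list median of 0.97. H2-Ab1 stood at 10194, 7499 and 8304 CPM in cDC1, against 4463, 3899 and 4274 CPM in all other barcodes (log2 fold change 1.15 ± 0.12 SE, adjusted p = 8.16e-07, edgeR). Cd74 stood at 19784, 23272 and 25712 CPM in cDC1, against 11050, 13861 and 15150 CPM in all other barcodes (0.90 ± 0.10 SE, adjusted p = 2.77e-06). Cst3 stood at 15239, 29557 and 27168 CPM in cDC1, against 2127, 3808 and 4479 CPM in all other barcodes (2.92 ± 0.12 SE, adjusted p = 3.53e-12). In each of these 3 genes the lowest cDC1 library lay above the highest of the other barcodes.

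The other lists are given by their counts against all other barcodes, where 9.26% of all genes tested were called higher and 14.8% lower. Of 20 lineage transcription factors 6 were called higher and 6 lower, and of 20 MHC class I genes 8 were called higher and 4 lower (medians 0.20 and 0.52). Most cDC2 genes (13 of 17), cytokines (16 of 20), uptake genes (11 of 17), cathepsin and lysosome genes (12 of 18), C-type lectins (8 of 13) and dissociation genes (11 of 20) were called lower, with medians of -2.64, -3.05, -3.29, -1.76, -2.30 and -0.77. Receptors for cytokines gave 3 higher and 11 lower of 23, and those for migration 6 higher and 6 lower of 17. Of 22 proliferation genes 6 were called higher and 2 lower, with a median of 0.47, and of 27 maturation genes 3 higher (Ccl17, Cd86 and Serpinb9), a share close to that of all genes, and 9 lower. Sensing and interferon genes gave 4 higher and 8 lower of 23, co-stimulation genes 3 higher and 5 lower of 13, and retinoic acid and TGF-beta genes 6 lower of 9.

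The 10 largest falls over all other barcodes included Igkc, Pf4, Cxcl2, F13a1, Apoe, Ccl2, Retnla, Cd63 and Ccl7, many of them known from macrophages, with the immunoglobulin gene Igkc from B lineage cells. Apoe, a lipid carrier, stood at 24.8, 50.1 and 59.3 CPM in cDC1, against 2066, 4587 and 7889 CPM in all other barcodes (log2 fold change -6.58 ± 0.20 SE, adjusted p = 1.08e-13, edgeR). Igkc stood at 0, 10.0 and 0 CPM in cDC1, against 17.7, 2377 and 6.37 CPM in all other barcodes, so that replicate 2 decides it (-7.76 ± 0.44 SE, adjusted p = 5.92e-10; 0.0945 without replicate 2). Ccl2, at 0, 35.1 and 0 CPM in cDC1, left no UMI in cDC1 once replicate 2 was taken out.

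Against only those other barcodes that met the same C1q limit (286, 431 and 356 in replicates 1, 2 and 3), 1774 of 8941 genes (19.8%) were called, 682 (7.63%) higher and 1092 (12.2%) lower. The cDC1 list gave 22 higher and 1 lower of 25, with a median of 2.57, and the class II list 9 higher and 2 lower of 14. The macrophage genes fell by less, with Apoe at -2.76 (adjusted p = 2.66e-06) and Pf4 at -1.89 (adjusted p = 0.0312, edgeR). Cd36 changed direction: it was lower in cDC1 than in all other barcodes (log2 fold change -1.50 ± 0.23 SE, adjusted p = 7.41e-05) but higher than in those low in C1q (1.38, adjusted p = 0.00182), as it was against Cd209a dendritic cells.

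Members differed among themselves in the genes found per barcode, which depth limits. Itgae was found in 41 of the 58, in 7, 16 and 18 members of replicates 1, 2 and 3, and after thinning in 2, 10 and 6. The members with Itgae after thinning had a median of 16870 UMIs, and those without had 16149. These groups held too few barcodes per library for a test. Irf8 was found in 55 members, Naaa in 56, Ifi205 in 51, Flt3 and Batf3 in 43 each, Btla in 40, Tlr3 in 39 and Cadm1 in 37. Cd8a, which marks cDC1 of lymphoid organs, was found in 1, which was 1 of the doubtful members. Cd207, the lectin langerin, was found in 7 members of replicates 2 and 3, all with Itgae, and 12 of its 29 UMIs came from 1 of them. Timd4 was found in 18, of which 15 had Itgae, with 20 of its 61 UMIs in 1 barcode. Epcam was found in 14, of which 13 had Itgae. Whether these genes go together beyond the depth of the barcodes was not tested.

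The limit on Ccr7 and Fscn1 keeps out mature dendritic cells that have switched on genes for migration to lymph nodes. Barcodes called Ccr7 dendritic cells had at least 3 UMIs of Ccr7 and Fscn1 together, at least 1 of them Fscn1, and at most 5 C1q UMIs. Xcr1 and Clec9a were not limited in this class. The 8 barcodes left out of cDC1 for Ccr7 and Fscn1 UMIs can thus be among them, so the class may hold mature cDC1. Ccr7 dendritic cells numbered 16, of which replicates 1, 2 and 3 held 1, 8 and 7, too few for a test. Their levels are therefore pooled over libraries with no replicate check. Irf8 stood at 1261 CPM in cDC1, against 87.0 CPM in Ccr7 dendritic cells, and Naaa at 1071 against 19.3 CPM. Relb, a factor of the alternative NF-kB pathway, stood at 33.5 CPM in cDC1, against 444 CPM in Ccr7 dendritic cells, and the chemokine Ccl22 at 38.7 against 527 CPM. Il12b, a subunit of the cytokines IL-12 and IL-23, stood at 3.14 CPM in cDC1, against 111 CPM in Ccr7 dendritic cells. Apol7c, of the cDC1 list, had no UMI in cDC1 and 55 UMIs in Ccr7 dendritic cells, where it stood at 266 CPM.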

How the data were processed

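The values are raw UMI counts, which the authors deposited as 1 matrix per library, with 31053 gene identifiers. The submitters' processing notes name Cell Ranger 3.1 and mm10, while the file headers name version 3.0.0 for replicate 1 and 3.1.0 for the others. How reads fitting several genes were treated is not given in the sources used here.

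Members and gene lists were chosen with earlier results of these data known. The genes that set a class were fitted with all genes but are in no count of calls. Genes named by size are the 10 largest changes each way among called genes with more than 3 counts in each class, at least 50 CPM in the higher class and 1 direction in every library. A class entered from a library with at least 10 barcodes. In the fits without the 3 doubtful members this minimum was 5, and replicate 1 entered with 8 cDC1 barcodes. Replicate 1 held under 10 cDC1 barcodes with at least 4 Xcr1 and Clec9a UMIs. The same held with at least 1 UMI of each gene and with at most 1 C1q UMI. Those fits therefore left replicate 1 out. Fits used edgeR 4.0.16 (filterByExpr, TMM) in R 4.3.3, and DESeq2 1.42.0 as an alternative. Both classes come from the same library, which is why the library is a block. Each SE of a log2 fold change was worked back from the estimate and the edgeR test statistic. It is not a spread measured over libraries. On simulated data, 100 genes were changed by 2 on the log2 scale and 100 by 1. For the comparison with Cd209a dendritic cells, the fit recovered 87% and 43% of them, over 6008 genes. For the comparison with all other barcodes it recovered 80% and 34%, over 10612 genes. Whether these rates hold for the measured counts was not tested. Doublets were scored with scrublet in scanpy 1.11.5 and the highest scores removed as an alternative. Cxx1a, Cxx1b, Clec7a, Ifi30, Cxcl11 and Clec6a were not analysed here. Some genes that the rule or the lists name are not reported here.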

Additional observations from a re-analysis of the deposited data

How the results depend on the processing

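The counts of called genes changed with depth, the number of genes tested, libraries and tool. Against Cd209a dendritic cells, the 356 higher and 450 lower genes became 159 and 229 with DESeq2 and 79 and 94 with barcodes thinned to 2000 UMIs. Thinning left 965 genes to test, against 5958, and 247 of the 806 main calls were among them. Without a filter on low counts 13767 genes were tested and 729 were lower. Against all other barcodes, the 952 higher and 1517 lower genes became 592 and 991 with DESeq2 and 192 and 521 after thinning. Thinning left 6063 genes to test here, against 10284, and 1824 of the 2469 main calls were among them. The median over all genes tested was -0.35 after thinning, and genes tested both ways moved by a median of -0.26. Both classes of a comparison are paired by library; without the library block the counts were 206 higher and 279 lower against Cd209a dendritic cells, and 516 and 1005 against all other barcodes. Leaving out 1 replicate gave 143 to 413 higher and 192 to 576 lower genes against Cd209a dendritic cells, and 356 to 1039 and 839 to 1715 against all other barcodes.

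The mean share of 2.18% moved to 3.21% with at least 1 Xcr1 or Clec9a UMI, 1.58% with at least 4, 1.86% with at most 1 C1q UMI, 2.49% with no limit on Ccr7 and Fscn1, 1.82% from 1000 UMIs, 2.39% from 4000 UMIs and 1.98% without the 3 doubtful members, with 2.10 to 2.27% over the replicates left out. The alternatives chosen after seeing the data were the removal of those members and of barcodes shared by libraries. Removing high doublet scores took out no barcode of either class against Cd209a dendritic cells, so its values there repeat the main fit. Over 136 gene results and 2209 recomputed values, 2091 kept their direction and side of the threshold, 96 lost a call, 19 gained one and 3 changed sign: Cd36 over all other barcodes (1.38 with at most 5 C1q UMIs), Zbtb46 (-0.06) and B2m (0.03) over Cd209a dendritic cells without replicate 3. Leaving out each replicate gave -0.06 to 0.26 for Zbtb46 and -0.14 to 0.03 for B2m. The cause was not tested. A gene that a setting did not test gave no value in this tally. After thinning, 76 of the 136 gene results were kept and 9 lost a call, and the rest could not be tested. With 58 members, genes under about 50 CPM rest on few UMIs in each library, and a missing call there does not show equal levels. The planned fits for Ccr7 dendritic cells and for members with and without Itgae had under 10 barcodes in too many libraries and were not run.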
